A study of Mus musculus with 4 samples.

Results

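The MHC class II pathway genes described here are 10 of the 32285 genes counted: H2-Aa, H2-Ab1, H2-Eb1, Cd74, H2-DMa, H2-DMb1, H2-DMb2, H2-Oa, H2-Ob and Ciita. They were chosen by symbol, and all 10 were counted. Class II molecules are pairs of an alpha and a beta chain that carry peptides from the endosome to the cell surface, where CD4 T cells read them. The invariant chain Cd74 fills the groove until H2-DM exchanges its remnant for peptide, H2-O restrains H2-DM, and the co-activator Ciita switches the genes on through factors bound to shared promoter boxes. In bone marrow the pathway is known from B-lineage cells, dendritic cells and monocytes.

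Mouse bone marrow was taken 10 weeks after transplantation, and CD45.2+ cells, a gate that separates transplanted from recipient blood cells, were sorted further. The 4 libraries, 1 per group, were made with the 10x Genomics 5′ version 2 kit. Kit+ cells came from control, Mll3/4 deleted and Mll3/4SI marrow, and B220lo cells from control marrow. MLL3 and MLL4 are histone methyltransferases, Kit is a receptor of early progenitors, and B220lo gates take in developing B cells and plasmacytoid dendritic cells. The labels do not expand SI and do not say how many mice entered a library.

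Median depth was 3272 UMIs (unique molecules) per barcode in the control B220lo library, 6761 in the deleted library, and 11964 and 12148 in the control and SI Kit+ libraries, and 51679 cells were kept. Pairs of libraries shared 214 to 345 cell barcodes. Kmt2c and Kmt2d, the genes of MLL3 and MLL4, were counted at 51.6 and 19.97 CPM after deletion and 58.5 and 24.1 CPM in the control Kit+ library, and 5′ counts do not check a deletion further along a gene. Transcripts of 4 Y-linked genes summed to 149 CPM in the deleted library and to at most 0.515 CPM in the others. Deletion, Y-linked content, library and, against B220lo cells, sort gate cannot be told apart. With 1 library per group there are no replicates and no difference was tested. Levels are CPM, counts per 1000000 UMIs of a set of cells, with exact Poisson 95% intervals in parentheses, and ratios carry exact binomial 95% intervals. All intervals cover counting error only. A gene was called higher or lower past 2-fold, with 1 CPM added to both levels, among genes with at least 50 UMIs over both sets.

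In the GENCODE M21 annotation of GRCm38, the build of the files, the 8 H2 genes are protein-coding genes of chromosome 17, between 34092340, the start of H2-Oa, and 34316674, the end of H2-Eb1. H2-Aa (34282744 to 34287823) is on the minus strand and the others, such as H2-Ab1 (34257689 to 34269419), are on the plus strand. Cd74 lies outside this region, and Ciita on chromosome 16 (10480059 to 10528418). H2-DMb2 (34143307 to 34151555) and H2-DMb1 (34153072 to 34160230) are neighbouring genes of similar sequence, so reads may be split between them and their separate counts are uncertain.

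Promoter sequences are shown because the members did not move together in the deleted cells, and the boxes that class II promoters share can be read in them. RefSeq windows of GRCm38.p6 were read for 7 of the 10 members. None was found for H2-Ab1 and Ciita, and the chromosome of Cd74 was left out of this step. A core of the X box was searched as AGNNACNGA and a core of the Y box as ATTGG, on both strands, in windows from 250 bases before to 50 bases after the start. The X core was present in 17.7% and the Y core in 37.4% of 32851 such windows. The X core followed by the Y core on 1 strand, 15 to 25 bases apart, was present in 43 windows, or 0.131%. The lines give 150 bases each, 5′ to 3′ on the gene's own strand, with the cores in capitals. They cover chr17:34305717-34305866 for H2-Eb1, chr17:34153041-34153190 for H2-DMb1, chr17:34145099-34145248 for H2-DMb2, chr17:34092229-34092378 for H2-Oa and chr17:34238755-34238904 for H2-Ob, on the plus strand, and chr17:34287824-34287973 for H2-Aa, on the minus strand.
H2-Eb1: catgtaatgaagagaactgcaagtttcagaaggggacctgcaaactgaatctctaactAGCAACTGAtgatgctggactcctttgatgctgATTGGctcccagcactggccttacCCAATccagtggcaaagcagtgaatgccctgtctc
H2-DMb1: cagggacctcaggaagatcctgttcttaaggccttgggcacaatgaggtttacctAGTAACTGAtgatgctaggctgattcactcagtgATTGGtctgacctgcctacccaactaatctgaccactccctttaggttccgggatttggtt
H2-DMb2: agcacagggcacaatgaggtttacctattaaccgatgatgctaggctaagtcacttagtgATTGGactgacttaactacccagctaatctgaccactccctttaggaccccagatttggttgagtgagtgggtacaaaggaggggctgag
H2-Aa: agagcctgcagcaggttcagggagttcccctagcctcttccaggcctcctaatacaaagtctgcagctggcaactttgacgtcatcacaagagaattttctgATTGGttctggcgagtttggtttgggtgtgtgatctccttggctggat
H2-Oa: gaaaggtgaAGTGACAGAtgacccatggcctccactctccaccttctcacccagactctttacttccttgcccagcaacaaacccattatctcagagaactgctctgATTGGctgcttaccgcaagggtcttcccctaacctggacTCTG
H2-Ob: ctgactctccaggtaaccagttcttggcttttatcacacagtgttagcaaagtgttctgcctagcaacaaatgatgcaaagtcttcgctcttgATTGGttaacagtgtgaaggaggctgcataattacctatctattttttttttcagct
All 7 members read had a Y core in a window and 4 had an X core. They had 8 windows together, and the percentages above are per window. H2-DMa, which has no line, had neither core in the window starting at 34122582. In its window starting at 34125268 a Y core lay 198 bases before the start, outside the 150 bases printed for the others. The X core of H2-Ob lay past the start, outside its line, and those of H2-Oa were not spaced to its Y core. A fixed pattern can miss boxes spelled otherwise, so a line without a core may still hold a box. H2-Eb1 and H2-DMb1 had the spaced pair, with 24 and 25 bases between the cores. The capitals at the end of the H2-Oa line belong to an X core on the opposite strand, which runs past the printed stretch. A match is a description of the letters and no more.

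Among 5 sets of control B220lo cells, each of the 10 genes was highest in kappa cells with Ms4a1, the gene of the B-cell surface protein CD20. Cells were grouped by assembled immunoglobulin contigs, leaving out cells with at least 2 Siglech UMIs. There were 2653 cells with no contig and at least 3 UMIs of Cd79a (a signalling chain of the B-cell receptor), 1709 with a heavy chain only, 3004 with a kappa light chain and no Ms4a1 UMI, 2740 with kappa and Ms4a1, and 1438 with lambda. Median depths lay between 2647.5 and 3214.5 UMIs per cell. The 10 B-lineage markers summed to between 10155 and 13158 CPM over these 5 sets. They include Cd79a and Ms4a1, by which some of the sets were chosen.

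H2-Aa, the alpha chain of the I-A molecule, stood at 204 CPM (196 to 212) without contig, 182 CPM (174 to 191) with heavy chain only and 172 CPM (166 to 179.5) with kappa and no Ms4a1. It stood at 876 CPM (859 to 893) with kappa and Ms4a1 and at 341 CPM (327 to 356) with lambda. The set with kappa and Ms4a1 stood above the other 4.

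H2-Ab1, the beta chain that pairs with H2-Aa, had 228, 201, 189.6, 682 and 297 CPM over the same 5 sets. H2-Eb1, the beta chain of the I-E molecule, had 125, 87.9, 85.97, 565 and 207 CPM. Cd74 had 1064, 601, 909, 7417 and 2641 CPM. Each of these genes was highest in kappa cells with Ms4a1 and next highest in lambda cells. However, 115 of the 1438 lambda cells held 50.03% of their UMIs of H2-Aa, H2-Ab1, H2-Eb1 and Cd74. Thinned to 1000 UMIs, H2-Aa had a UMI in 15.99% (14.1 to 18) of lambda and 14.3% (13 to 15.7) of contig-free cells. For Cd74 these shares were 58.5% (55.9 to 61.1) and 38% (36.1 to 39.8).

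H2-DMa, the alpha chain of the peptide editor, had 45.1, 30.4, 32.4, 139.5 and 62.7 CPM over the 5 sets. H2-DMb1, one of its beta chains, had 19.1, 11.8, 11.97, 29.1 and 21.8 CPM, and H2-DMb2, the other, had 28.5, 10.9, 14.3, 198 and 70.04 CPM. H2-DMb1 UMIs were 0.668 times (0.567 to 0.787) those of H2-DMb2 in contig-free cells and 0.147 times (0.131 to 0.165) in kappa cells with Ms4a1.

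H2-Oa, the alpha chain of the H2-DM inhibitor, had 27.1, 13.6, 16.8, 84.7 and 36.1 CPM. Its beta chain H2-Ob had 64.8, 49.6, 54.1, 102 and 76.9 CPM, the smallest fold between highest and lowest set of the 10 genes. Ciita stood at 12.8 CPM (10.9 to 14.9), 14.1 CPM (11.8 to 16.6), 12.6 CPM (10.8 to 14.6), 35.3 CPM (32.02 to 38.9) and 17.1 CPM (13.96 to 20.7). The first 3 of these intervals overlap.

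**Figure D1:**
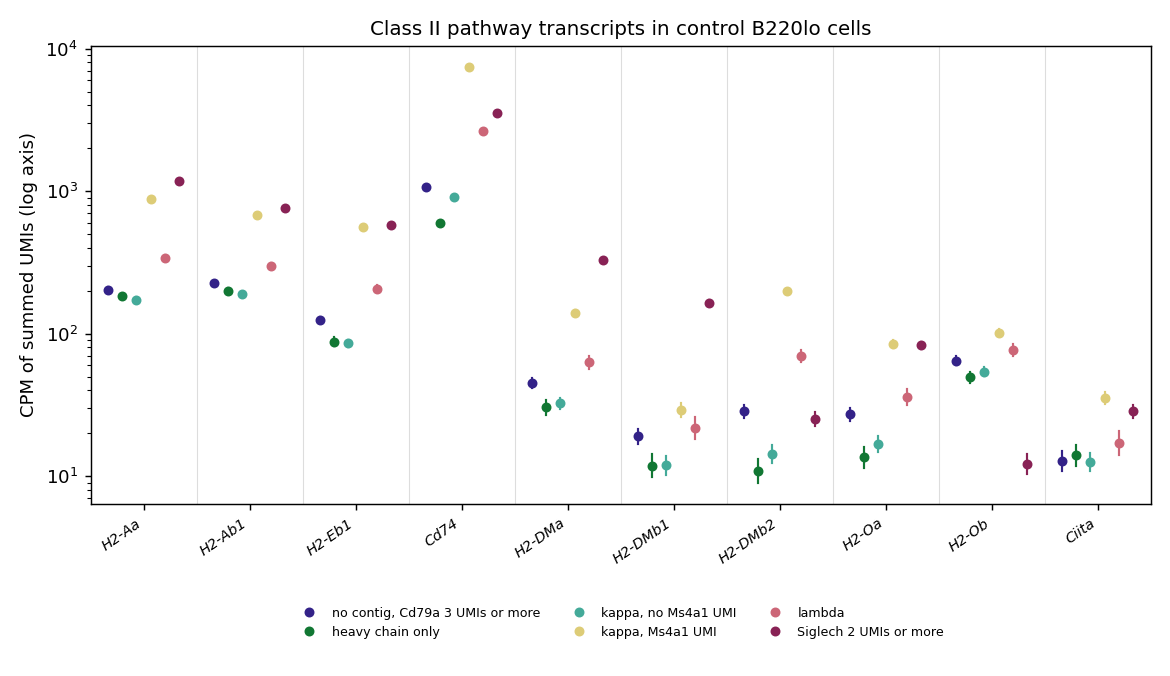
CPM of the 10 genes (log axis) in 6 sets of control B220lo cells; points are sums over cells and bars exact Poisson 95% intervals. Kappa cells with Ms4a1 stood above the other 4 B-lineage sets for every gene (Cd74 at 7417 CPM), and Siglech cells had high H2-DMb1 (165 CPM) and low H2-Ob (12.2 CPM).

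Kappa cells with Ms4a1 over kappa cells without it gave 9 of 10 members higher and 0 lower, against 3.78% higher and 2.41% lower of 11492 genes. The median log2 ratio was 2.17 over the 10 members and -0.03 over all genes tested. H2-DMb2 was at 13.8 times (11.99 to 16.1), Cd74 at 8.16 times (8.01 to 8.31), H2-Eb1 at 6.57 times (6.18 to 6.99) and H2-Aa at 5.08 times (4.86 to 5.31) the level without Ms4a1. Ciita was at 2.802 times (2.35 to 3.36). H2-Ob was the member not called, at 1.88 times (1.71 to 2.06).

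Other genes of the pathway came from lists of 13 regulators, 11 handling, 5 co-stimulation and 9 class I genes, and counts are given over those with at least 50 UMIs in the comparison. Of all 11492 genes tested, 3.78% were higher and 2.41% lower with Ms4a1. With Ms4a1 there were 1 higher and 0 lower of 13 regulators (median log2 ratio -0.01), 3 higher and 0 lower of 11 handling genes (median log2 ratio 0.21), 4 higher and 0 lower of 4 co-stimulation genes (median log2 ratio 2.20) and 0 higher and 0 lower of 9 class I genes (median log2 ratio 0.37). The handling genes were Ifi30, a thiol reductase of the endosome, at 11.6 times (10.9 to 12.4), March1, which targets class II for removal, at 6.01 times (4.72 to 7.73), and Ctss, the protease that trims Cd74, at 2.39 times (2.24 to 2.56). The co-stimulation genes, whose products signal to T cells beside class II, were Cd83 at 19.7 times (14.5 to 27.4), Cd40 at 5.38 times (4.79 to 6.05), Cd86 at 5.14 times (3.63 to 7.45) and Icosl at 4.81 times (2.99 to 8.06). The regulator called was Irf8, an interferon regulatory factor, at 2.13 times (2.02 to 2.26). Rfx5, a subunit of the factor that binds the X box, had 29.2 CPM with and 19.8 CPM without Ms4a1.

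Cells with a heavy chain only over cells without contig gave 0 members higher and 1 lower, against 0.318% higher and 4.04% lower of 11312 genes. The lower gene was H2-DMb2, at 0.383 times (0.307 to 0.476). H2-Oa was at 0.4998 times (0.407 to 0.611) and Cd74 at 0.565 times (0.548 to 0.583), and neither was called with 1 CPM added. Of the contig-free cells, 75 of 2653 had at least 50 UMIs of H2-Aa, H2-Ab1, H2-Eb1 and Cd74 and held 39.3% of them. In the heavy-chain set 13 of 1709 cells held 9.68%. Thinned to 1000 UMIs, Cd74 had a UMI in 37.96% of contig-free and 38.2% of heavy-chain cells. Ms4a1 itself stood at 45.4 CPM in the heavy-chain and 138 CPM in the contig-free set, and its part in these ratios was not tested. With both sets limited to cells without an Ms4a1 UMI, 0 members were higher and 0 lower, against 0.417% higher and 3.96% lower of 11041 genes. The lists gave 0 higher and 0 lower of 13 regulators (median log2 ratio -0.04), 0 higher and 1 lower of 11 handling genes (median log2 ratio -0.41), 0 higher and 1 lower of 3 co-stimulation genes (median log2 ratio -0.86) and 0 higher and 0 lower of 9 class I genes (median log2 ratio -0.24). The lower genes were Cd63, of endosomal membranes, and Cd83.

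Kappa cells without Ms4a1 over heavy-chain-only cells gave 0 members higher and 0 lower, against 2.67% higher and 0.133% lower of 11244 genes. Cd74 was the member farthest from equal, at 1.51 times (1.47 to 1.56). The intervals of H2-Aa, H2-Ab1, H2-Eb1, H2-DMa, H2-DMb1, H2-Oa, H2-Ob and Ciita included equal levels. Of the lists, Cd63 alone was called, higher in the kappa cells at 3.92 times (2.72 to 5.79).

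Single cells differed within each set. Thinned to 1000 UMIs per cell, Cd74 had a UMI in 86.97% (85.7 to 88.2) of kappa cells with Ms4a1 and in 43.3% (41.6 to 45.1) of kappa cells without it. H2-Aa had a UMI in 38.4% (36.5 to 40.2) and 13.2% (12.02 to 14.5) of them. Without thinning the Cd74 shares were 94.8% and 67.9%, and those of H2-Aa 58.9% and 30.1%.

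T or NK cells of the same library, which mostly lack class II in mice, gave the background of these shares. In 367 such cells, with a median depth of 4863 UMIs, Cd74 had a UMI in 8.72% (6.04 to 12.1) and H2-Aa in 2.997% (1.51 to 5.3) at 1000 UMIs. Their Cd74 stood at 204 CPM (185 to 224), but 4 cells held 66.3% of their UMIs of H2-Aa, H2-Ab1, H2-Eb1 and Cd74. In 220 cells with granulocyte transcripts (median depth 9496 UMIs) H2-Aa stood at 9.73 CPM (6.24 to 14.5) and Cd74 at 54.3 CPM (45.5 to 64.4). H2-DMa stood at 62.9 CPM (53.4 to 73.6) in these cells, the level of lambda cells, so its presence did not mark B-lineage cells.

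Cells with at least 2 UMIs of Siglech, a receptor of plasmacytoid dendritic cells, numbered 1770 in the B220lo library, with a median depth of 5989 UMIs. All 10 plasmacytoid markers were at 10 CPM or more in them and summed to 17774 CPM, against 4457 CPM in kappa cells with Ms4a1. Siglech, by which the former cells were chosen and the latter limited, is part of both sums. The 10 monocyte or macrophage markers summed to 5570 and 689 CPM in these sets. They include Ctss and also Irf8, which is in the plasmacytoid list as well, so the sum does not single out monocytes. The part of monocytes or macrophages in the class II levels was not tested. Siglech cells carried as much of the class II chains as the Ms4a1 kappa cells, and other levels of the accessory genes.

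H2-Aa stood at 1172 CPM (1153 to 1191), H2-Ab1 at 758 CPM (743 to 774) and H2-Eb1 at 574 CPM (561 to 588) in Siglech cells. These were 1.34 times (1.305 to 1.37), 1.11 times (1.08 to 1.15) and 1.02 times (0.983 to 1.05) the level of kappa cells with Ms4a1. Cd74 stood at 3552 CPM (3519 to 3586), 0.479 times (0.473 to 0.484) that level. Cd74 UMIs were 3.03 times (2.98 to 3.09) those of H2-Aa in Siglech cells and 8.47 times (8.3 to 8.65) in kappa cells with Ms4a1.

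The beta chains of H2-DM had opposite orders in Siglech cells and kappa cells with Ms4a1. H2-DMa stood at 327 CPM (317 to 338), 2.35 times (2.21 to 2.48) the kappa Ms4a1 level, and H2-DMb1 at 165 CPM (158 to 173), 5.67 times (5.06 to 6.38). H2-DMb2 stood at 25.1 CPM (22.4 to 28.1), 0.127 times (0.112 to 0.143). UMIs of H2-DMb1 were 6.57 times (5.82 to 7.44) those of H2-DMb2 in Siglech cells.

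H2-Oa was alike in both, at 82.7 CPM (77.7 to 87.97) and 84.7 CPM (79.5 to 90.1). H2-Ob stood at 12.2 CPM (10.4 to 14.4) in Siglech cells, 0.121 times (0.101 to 0.143) the kappa Ms4a1 level, beside 12.6 CPM (8.28 to 18.3) in T or NK cells. Ciita stood at 28.4 CPM (25.5 to 31.6), 0.805 times (0.696 to 0.931). The inhibitor's alpha chain was thus counted while its beta chain was at the level of T or NK cells. T or NK cells also had 30.3 CPM of H2-Oa. In 186 granulocyte cells, those in no other set, H2-Oa stood at 4.66 CPM and H2-Ob at 1.55 CPM. The H2-Ob level of Siglech cells was therefore above that of granulocyte cells.

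At 2-fold 2 members were higher in Siglech cells (H2-DMa and H2-DMb1) and 3 lower (Cd74, H2-DMb2 and H2-Ob), against 11.5% higher and 9.28% lower of 11598 genes. The lists gave 1 higher and 4 lower of 13 regulators (median log2 ratio -0.32), 4 higher and 2 lower of 10 handling genes (median log2 ratio 0.16), 0 higher and 3 lower of 4 co-stimulation genes (median log2 ratio -3.01) and 0 higher and 0 lower of 9 class I genes (median log2 ratio 0.25). Among regulators Irf8 was higher, at 9.54 times (9.21 to 9.88), and Rfx5, Irf4, Pax5 and Ebf1 were lower, with Pax5, which sets B-cell identity, at 0.08197 times (0.0753 to 0.0891). The cathepsins Ctss, Ctsl, Ctsb and Ctsd, proteases of the endosome, were higher, with Ctsl at 73.3 times (61.7 to 87.8), and Ifi30 and H2-Eb2 were lower. Cd86, Cd40 and Cd83 were lower, with Cd40 at 0.0269 times (0.0195 to 0.0363).

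Of the Siglech cells 236 carried a contig and 1534 did not. H2-Aa stood at 721 and 1268 CPM with and without a contig, Cd74 at 2479 and 3781 CPM, H2-DMb1 at 106 and 178 CPM and H2-Ob at 15.9 and 11.5 CPM. B-lineage markers summed to 3408 and 859.6 CPM in these sets, and the part of B-lineage RNA in the difference was not tested. Of all Siglech cells 607, or 34.3%, had at least 50 UMIs of H2-Aa, H2-Ab1, H2-Eb1 and Cd74 and held 83.2% of them, while 219 cells had 0.

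Deleted Kit+ cells with B-lineage transcripts had nearly none of H2-Aa, H2-Eb1, Cd74, H2-DMb2 and Ciita, but H2-Ab1 near the B220lo level. The deleted library held 12591 cells with at least 3 Cd79a UMIs, of which 9649 had no contig and 2910 a heavy chain only. They were set against B220lo cells with at least 3 Cd79a UMIs in the same contig state. B-lineage markers summed to 15233 CPM in contig-free deleted and 13078 CPM in contig-free B220lo cells, with 9 and 10 of 10 at 10 CPM or more and median depths of 6444 and 2968 UMIs. Cd79a, by which both sets were chosen, is among those markers.

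H2-Ab1 stood at 217 CPM (214 to 220.3) in contig-free deleted cells and 228 CPM (219.5 to 236) in B220lo cells, 0.953 times (0.917 to 0.991). H2-Aa stood at 1.11 CPM (0.886 to 1.38) and 204 CPM (196 to 212), so that it was 183 times (147 to 231) lower. H2-Eb1 stood at 1.29 CPM (1.04 to 1.57) and 125 CPM (119 to 131), 96.8 times (78.8 to 120.2) lower. The beta chain of I-A was thus counted near the B220lo level and its alpha chain was not: H2-Ab1 UMIs were 195 times (157 to 245) those of H2-Aa in deleted cells and 1.12 times (1.06 to 1.18) in B220lo cells.

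Cd74 stood at 1.69 CPM (1.41 to 2.01) on 126 UMIs, against 1064 CPM (1046 to 1082), 629.7 times (528 to 756) lower. Ciita stood at 0.228 CPM (0.133 to 0.365) on 17 UMIs, against 12.8 CPM (10.9 to 14.9), 56.2 times (34.1 to 98.8) lower. The invariant chain and the co-activator of the pathway were thus both nearly absent. In the contig-free B220lo set, 75 of 2653 cells held 39.3% of the UMIs of H2-Aa, H2-Ab1, H2-Eb1 and Cd74.

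H2-DMb2 stood at 0.134 CPM (0.0643 to 0.247) on 10 UMIs, against 28.5 CPM (25.7 to 31.6), 213 times (114 to 447) lower. H2-DMb1 stood at 5.28 CPM (4.77 to 5.83) against 19.1 CPM (16.8 to 21.6), 3.61 times (3.07 to 4.24) lower. Both beta chains of H2-DM were therefore below the B220lo level, by very different factors. T or NK cells of the B220lo library had 21.9 CPM of H2-DMb1, so the B220lo level of this gene was not above that background.

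H2-DMa stood at 61.7 CPM (59.9 to 63.5) against 45.1 CPM (41.5 to 48.9), 1.37 times (1.25 to 1.49). H2-Oa stood at 59.95 CPM (58.2 to 61.7) against 27.1 CPM (24.4 to 30.1), 2.21 times (1.98 to 2.47). H2-Ob stood at 53.9 CPM (52.2 to 55.6) against 64.8 CPM (60.5 to 69.3), 0.833 times (0.773 to 0.898). T or NK cells of the B220lo library had 63.8 CPM of H2-DMa, 30.3 of H2-Oa and 12.6 of H2-Ob. The B220lo levels of H2-DMa and H2-Oa were thus not above those of T or NK cells. In 186 granulocyte cells of the B220lo library, those in no other set, H2-DMa stood at 59.6 CPM, H2-Oa at 4.66 and H2-Ob at 1.55. The B220lo level of H2-Oa was therefore above that of granulocyte cells but not that of T or NK cells. The alpha chain of H2-DM and both chains of H2-O were counted in deleted cells, where Cd74 and Ciita were nearly absent.

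At 2-fold 1 member, H2-Oa, was higher and 6 of 10 (H2-Aa, H2-Eb1, Cd74, H2-DMb1, H2-DMb2 and Ciita) were lower in contig-free deleted cells, against 11.3% higher and 11% lower of 13787 genes. The median log2 ratio was -2.58 over the 10 members and -0.03 over all genes tested. In cells with a heavy chain only 2 members were higher (H2-DMa and H2-Oa) and 6 lower, against 16.1% higher and 9.12% lower of 12091 genes. There H2-Ab1 was at 1.03 times (0.977 to 1.09), H2-Aa was 123 times (87.9 to 177) lower and Cd74 341 times (251 to 476) lower. H2-DMb2 and Ciita had 3 and 2 UMIs in the heavy-chain deleted cells, and their levels were 0.0127 times (0.00257 to 0.0382) and 0.00744 times (0.0008899 to 0.0275) those of B220lo cells.

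**Figure D2:**
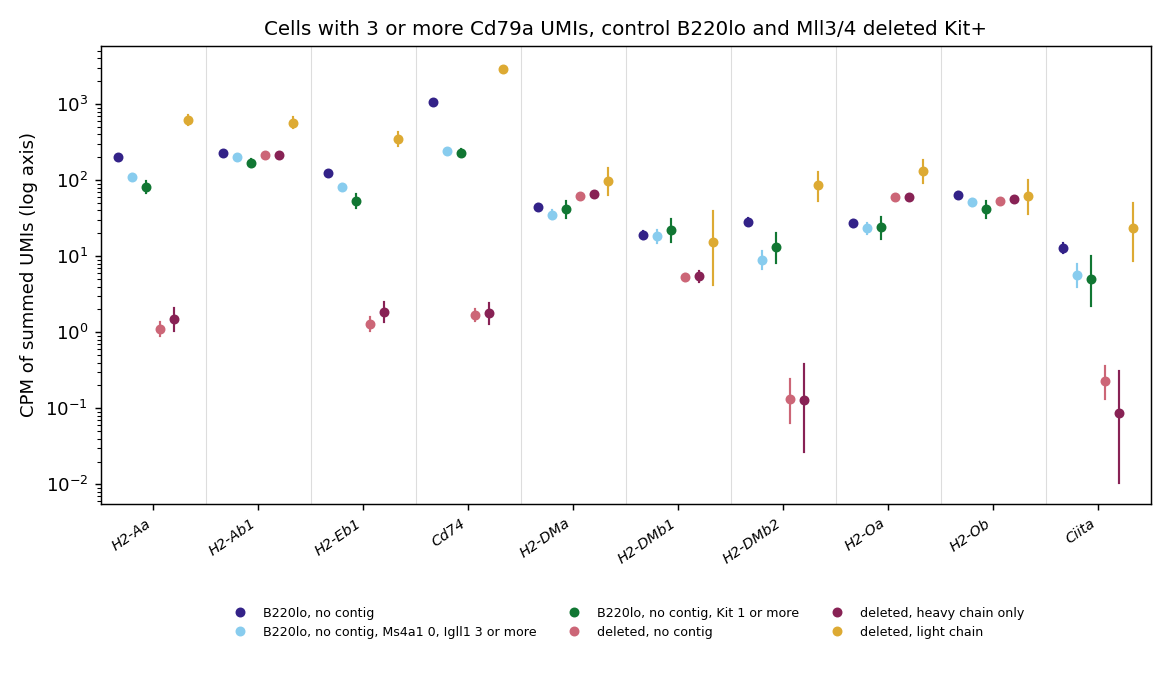
CPM of the 10 genes (log axis) in cells with at least 3 Cd79a UMIs; points are sums over cells and bars exact Poisson 95% intervals. H2-Ab1, H2-DMa, H2-Oa and H2-Ob lie within a few fold of the B220lo cells in all deleted sets, while Cd74 lies at 1.69 CPM in contig-free deleted cells and at 2888 CPM in the 32 deleted cells with a light chain.

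The deleted cells differed from the B220lo cells in stage markers. Igll1, a surrogate light chain of early B-lineage cells, stood at 2736 against 1201 CPM and Ms4a1 at 0.0536 against 138 CPM. Kit, on which the deleted library was sorted, stood at 365 against 18.9 CPM. B220lo cells limited by these genes were therefore compared as well. In 721 contig-free B220lo cells with 0 Ms4a1 and at least 3 Igll1 UMIs, H2-Aa stood at 111 CPM (103 to 119.9), Cd74 at 240.1 CPM (228 to 253) and Ciita at 5.66 CPM (3.92 to 7.904). Contig-free deleted cells were lower than these by 99.8 times (79.4 to 127), 142 times (118 to 172) and 24.8 times (13.5 to 47.4), and H2-Ab1 was at 1.09 times (1.02 to 1.15). These B220lo levels rest in part on few cells: 3 of the 721 cells held 37.2% of the UMIs of H2-Aa, H2-Ab1, H2-Eb1 and Cd74, and the highest single cell had 250 of the 668 H2-Aa UMIs and 541 of the 1443 Cd74 UMIs.

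The T or NK cells of the B220lo library, the background of these levels, had 70.8 CPM of H2-Aa and 204 CPM of Cd74, with 58.2% of the UMIs of the 4 genes in 1 cell. Without cells with at least 50 such UMIs, the early B220lo cells had H2-Aa at 63.8 CPM (57.5 to 70.5) and Cd74 at 139 CPM (129.5 to 148), and the T or NK cells 22.9 CPM (16.97 to 30.3) and 97.8 CPM (85.01 to 112). The ratios do not subtract this background, and its part in the early B220lo levels was not tested.

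In 157 contig-free B220lo cells with a Kit UMI, H2-Aa stood at 82.1 CPM (68.5 to 97.5), H2-Ab1 at 167 CPM (147 to 188) and Cd74 at 229 CPM (206 to 254). Deleted cells were 73.8 times (55.5 to 98.4) lower for H2-Aa and 136 times (110.4 to 167) lower for Cd74, and H2-Ab1 was at 1.301 times (1.15 to 1.48). In the control Kit+ library, which shares the Kit+ sort, 18 contig-free cells had at least 3 Cd79a UMIs. They held 6 UMIs of H2-Aa, 30 of H2-Ab1, 5 of Cd74 and 0 of Ciita, and deleted cells were 38.6 times (13.8 to 87.6) lower for H2-Aa and 21.2 times (6.76 to 50.8) lower for Cd74. All 5 Cd74 UMIs of these control cells lay in 1 cell, which leaves the Cd74 ratio against them resting on that cell. Of the 157 B220lo cells with a Kit UMI, 2 held 24.2% of the UMIs of the 4 genes. Without those, H2-Aa stood at 62.6 CPM (50.8 to 76.5) and Cd74 at 164 CPM (144 to 185). Over all cells of each set, the Cd74 interval of the B220lo cells with a Kit UMI overlapped that of the T or NK cells, at 204 CPM (185 to 224). The H2-Aa intervals overlapped as well, with T or NK cells at 70.8 CPM (59.96 to 82.95). Without the cells with at least 50 UMIs of the 4 genes in either set, neither pair of intervals overlapped.

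With both sets limited to cells with 0 Ms4a1 and at least 3 Igll1 UMIs, 1 of 10 tested members was higher and 6 lower without contig, against 11% higher and 7.58% lower of 13344 genes. With a heavy chain only 3 of 8 tested members were higher and 3 lower, against 18.7% higher and 6.74% lower of 11670 genes. With both sets limited to cells with a Kit UMI, 1 of 8 tested members was higher and 4 lower without contig, against 11.2% higher and 7.88% lower of 13030 genes. With a heavy chain only 4 of 6 tested members were higher and 2 lower under that limit, against 23.2% higher and 9.63% lower of 11291 genes. The higher members were H2-Ab1, H2-DMa, H2-Oa and H2-Ob and the lower ones Cd74 and H2-DMb1. H2-Aa, H2-Eb1, H2-DMb2 and Ciita were under 50 UMIs and so not counted, with log2 ratios of -4.60, -3.42, -3.99 and -3.61. In the heavy-chain cells the log2 ratio of H2-Aa was -5.41 and -4.60 and that of Cd74 -5.69 and -5.95 under these limits. H2-DMb1, however, had a log2 ratio of -0.08 among heavy-chain cells with Igll1, and H2-Ab1 one of 1.32 among those with Kit.

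The deleted library also held 32 cells with at least 3 Cd79a UMIs and a light chain. H2-Aa stood in them at 624 CPM (531 to 728), H2-Ab1 at 569 CPM (480.4 to 669), Cd74 at 2888 CPM (2684 to 3103), H2-DMb2 at 85.7 CPM (53.7 to 129.8) and Ciita at 23.4 CPM (8.58 to 50.9). Of these cells 9 had at least 50 UMIs of H2-Aa, H2-Ab1, H2-Eb1 and Cd74 and held 91.6% of them. The 29 such light-chain cells of the control Kit+ library had 1213 CPM of H2-Aa and 5968 CPM of Cd74, and the 22 of the SI library 1395 and 6181 CPM. Whether the light-chain cells of the deleted library carried the deletion was not tested.

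H2-Ab1 was spread over the deleted cells and H2-Aa was in few. Per contig-free deleted cell the median, the 90th percentile and the highest count of H2-Ab1 were 1, 4 and 16 UMIs. At 1000 UMIs per cell 19.2% (18.4 to 19.99) of contig-free deleted cells had an H2-Ab1 UMI, 0.114% (0.0569 to 0.204) an H2-Aa UMI and 0.197% (0.119 to 0.307) a Cd74 UMI. The B220lo shares were 15.7% (14.3 to 17.1), 14.3% (12.98 to 15.7) and 37.96% (36.1 to 39.8). Without thinning the deleted shares were 67.8%, 0.612% and 0.736% and the B220lo shares 38.1%, 29.4% and 61.9%.

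Erythroid cells, which should lack class II, gave the background of the deleted library. In its 62 cells with at least 3 Car1 and 1 Klf1 UMIs (median depth 16802 UMIs), H2-Ab1 stood at 43.2 CPM (32.6 to 56.3) and H2-Aa at 2.36 CPM (0.486 to 6.89). Cd74 had 0 UMIs in these 62 cells, where 3 UMIs make 2.36 CPM. Contig-free deleted B-lineage cells had 5.02 times (3.85 to 6.66) the H2-Ab1 level of these cells and 0.472 times (0.156 to 2.33) their H2-Aa level, an interval that includes equal levels. H2-DMa stood at 57.4 CPM (44.99 to 72.2), the B-lineage level. At 1000 UMIs 1.61% (0.0408 to 8.66) of the erythroid cells had an H2-Ab1 UMI. B-lineage markers summed to 455 CPM in them. Of the 62 cells, 56 lay outside the deleted sets chosen by Cd79a, and had 39.3 CPM of H2-Ab1 and 2.62 of H2-Aa. The part of B-lineage RNA in this background was not tested.

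The lists gave 0 higher and 4 lower of 13 regulators (median log2 ratio -0.67), 2 higher and 5 lower of 11 handling genes (median log2 ratio -0.88), 1 higher and 3 lower of 5 co-stimulation genes (median log2 ratio -2.24) and 3 higher and 0 lower of 9 class I genes (median log2 ratio 0.67) in contig-free deleted cells. Of all 13787 genes tested there, 11.3% were higher and 11% lower. The regulators called were Irf4 at 0.0279 times (0.02501 to 0.0311), Irf8 at 0.0529 times (0.0481 to 0.0581), Spi1 at 0.117 times (0.107 to 0.128) and Irf1 at 0.454 times (0.4201 to 0.4901) the B220lo level. Rfx5 and Rfxap, subunits of the factor on the X box, were at 1.01 times (0.881 to 1.17) and 1.04 times (0.943 to 1.14), and Nfyb, a subunit of the factor on the Y box, at 0.9205 times (0.864 to 0.981). Rfxank, the remaining subunit of the X-box factor, was at 0.613 times (0.526 to 0.718), and Nfya and Nfyc, the other subunits of the Y-box factor, at 0.527 times (0.484 to 0.574) and 0.777 times (0.725 to 0.833). Creb1, which also binds the X-box region, was at 0.621 times (0.585 to 0.661). The regulators called lower were 3 interferon regulatory factors and Spi1, a factor of myeloid and B cells.

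Of the handling genes Ctsl and March8 were higher, and Ctss, Lgmn, Ifi30, March1 and H2-Eb2 were lower. Lgmn, an endosomal protease, was at 0.0645 times (0.0546 to 0.0759) and Ctss at 0.2502 times (0.232 to 0.2703), while Ctsl was at 3.23 times (2.76 to 3.79). Cd86, Cd40 and Cd83 were lower, with 2 UMIs of Cd40 in the deleted cells, and Icosl, a ligand of T-cell ICOS, was higher, at 4.103 times (2.65 to 6.69). In the class I pathway, which serves CD8 T cells, the peptide transporters Tap1 and Tap2 were at 2.28 times (2.16 to 2.41) and 2.21 times (2.07 to 2.36) and the immunoproteasome subunit Psmb9 at 2.26 times (2.18 to 2.35). In cells with a heavy chain only the lists gave 0 higher and 3 lower of 13 regulators (median log2 ratio -0.33), 2 higher and 3 lower of 9 handling genes (median log2 ratio 0.28), 1 higher and 1 lower of 2 co-stimulation genes (median log2 ratio -1.07) and 4 higher and 0 lower of 9 class I genes (median log2 ratio 0.99). Of all 12091 genes tested in these cells, 16.1% were higher and 9.12% lower. The lower regulators were Irf4, Irf8 and Spi1. Of the handling genes Ctsl and Cd63 were higher and Ctss, Lgmn and Ifi30 lower, and of the co-stimulation genes Icosl was higher and Cd40 lower. The class I genes were H2-K1, a class I heavy chain, at 2.06 times (2.02 to 2.11), Tap1 at 2.65 times (2.47 to 2.86), Tap2 at 3.15 times (2.87 to 3.46) and Psmb9 at 2.24 times (2.14 to 2.35).

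In Kit+ progenitors H2-Aa, H2-Eb1 and Cd74 were below their levels in B220lo kappa cells with Ms4a1, and in control and SI Flt3 and F13a1 cells a few cells held much of them. Cells with at least 1 UMI of Hlf, a stem-cell transcription factor, numbered 2493 in control, 186 in deleted and 3238 in SI cells. Cells with at least 2 UMIs of Flt3, a receptor of multipotent progenitors, numbered 1066, 830 and 1227, and cells with at least 2 UMIs of F13a1, a monocyte-lineage gene, 2047, 394 and 1131. The sets overlap, with 453 control cells in both the Hlf and the Flt3 set. Of the deleted Flt3 cells 772 had at least 3 Cd79a UMIs, against 2 of the control and 1 of the SI cells.

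In control Hlf cells H2-Aa stood at 34.3 CPM (32.2 to 36.5), H2-Ab1 at 87.8 CPM (84.4 to 91.2), H2-Eb1 at 27.6 CPM (25.7 to 29.6), Cd74 at 49.7 CPM (47.2 to 52.3) and Ciita at 1.13 CPM (0.775 to 1.58). In the same order control Flt3 cells had 76.3, 122, 58.9, 151 and 2.29 CPM, and control F13a1 cells 5.96, 41.9, 3.95, 13.6 and 0.125 CPM. All 5 genes were lowest in F13a1 cells. They were highest in Flt3 cells over all cells of a set, but 8 Flt3 cells held 58.1% of the UMIs of H2-Aa, H2-Ab1, H2-Eb1 and Cd74. Without cells with at least 50 such UMIs, Flt3 and Hlf cells had 28.2 and 29.5 CPM of H2-Aa, 36.5 and 37.5 of Cd74 and 0.5596 and 1.02 of Ciita, so that the order of the Flt3 and Hlf sets did not hold.

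The peptide editor and its inhibitor had other orders. H2-DMa stood at 154, 187 and 121 CPM in control Hlf, Flt3 and F13a1 cells, near the level of kappa cells with Ms4a1. H2-DMb1 stood at 44.6, 53.5 and 56.2 CPM and H2-DMb2 at 2.49, 5.201 and 4.36 CPM. H2-Oa had 20.1, 19.6 and 9.06 CPM and H2-Ob 18.4, 23.4 and 5.49 CPM. Among these genes H2-DMb1 was the one highest in F13a1 cells.

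Control erythroid cells, numbering 2313 with a median depth of 17163 UMIs, had 4.41 CPM of H2-Aa, 45.7 of H2-Ab1, 9.104 of Cd74 and 54.7 of H2-DMa. Hlf cells had 7.77 times (6.64 to 9.15) that H2-Aa level and 1.92 times (1.81 to 2.04) that H2-Ab1 level. Control F13a1 cells were near the erythroid level for H2-Ab1, at 41.9 CPM. Thinned to 1000 UMIs, 4.54% (3.68 to 5.54) of F13a1 and 4.97% (4.12 to 5.94) of erythroid cells had an H2-Ab1 UMI. The highest counts in a single erythroid cell were 46 of the 184 H2-Aa UMIs and 100 of the 380 Cd74 UMIs. The highest counts in a single control F13a1 cell were the same, 46 and 100. Erythroid cells were not kept apart from the other sets. Of the 2047 control F13a1 cells, 2005 lay outside the erythroid set, with 39.9 CPM of H2-Ab1, 3.86 of H2-Aa and 8.07 of Cd74. The part of shared cells in the erythroid background was not tested. At 1000 UMIs H2-Aa had a UMI in 3.61% (2.91 to 4.42) of control Hlf and 0.476% (0.238 to 0.849) of control erythroid cells, and without thinning in 16.3% and 3.199%. The Hlf cells had a median depth of 10314 UMIs.

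**Figure D3:**
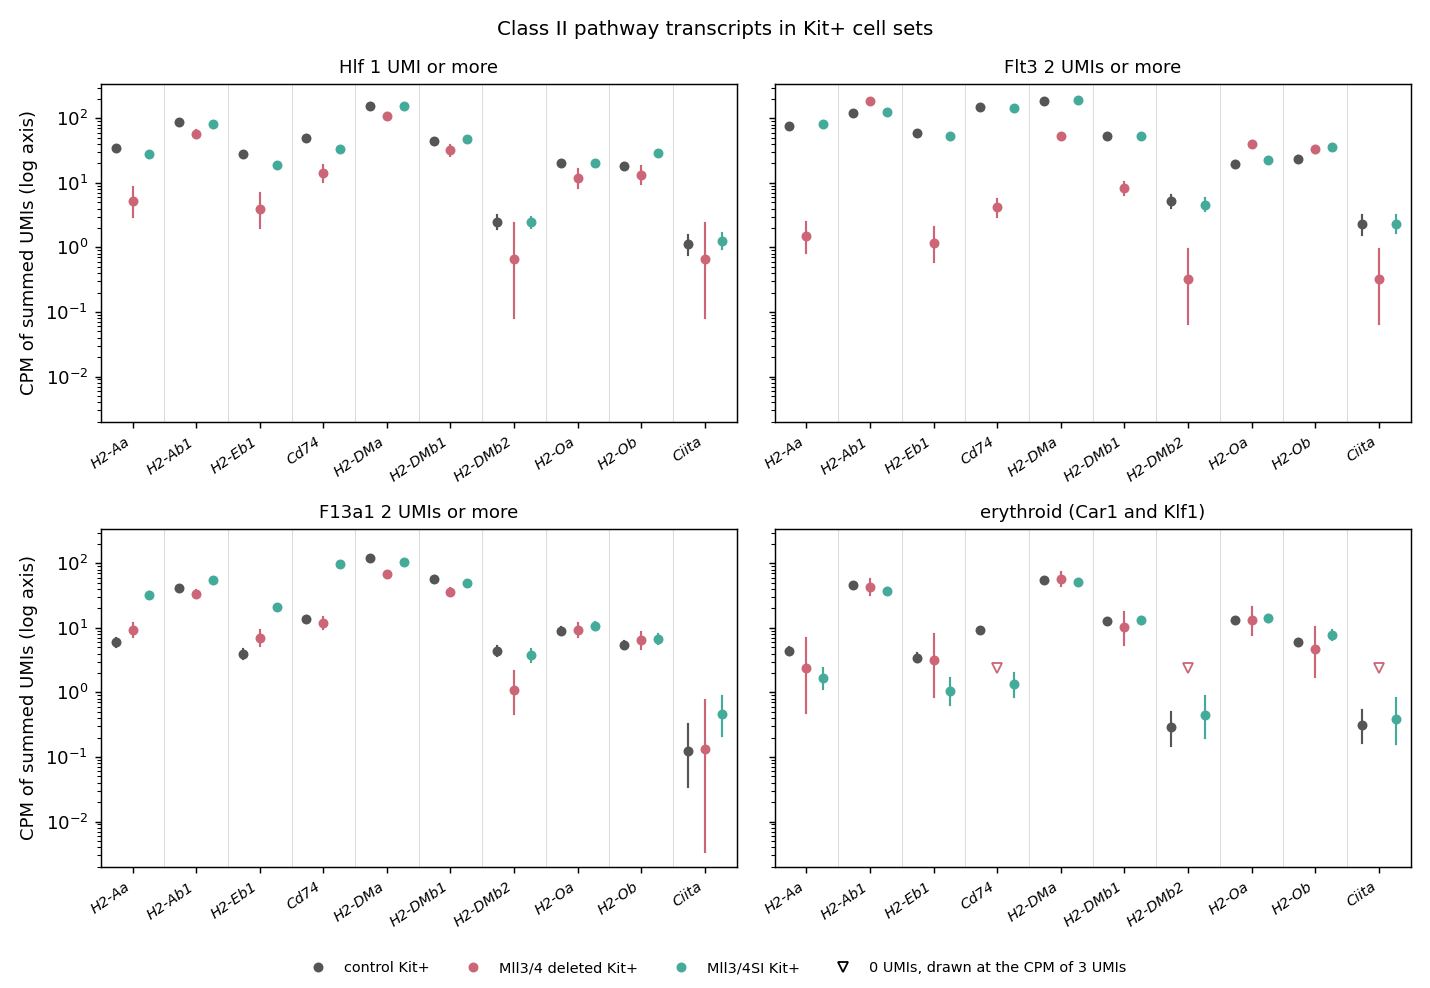
CPM of the 10 genes (log axis) in 4 sets of Kit+ cells of 3 libraries; points are sums over cells and bars exact Poisson 95% intervals. In Hlf and Flt3 cells the deleted points lie lower for H2-Aa, H2-Eb1 and Cd74, and in F13a1 cells the SI points lie higher for these genes (Cd74 at 97.1 CPM against 13.6 CPM in control).

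Deleted Hlf cells over control Hlf cells gave 0 members higher and 4 of 9 tested lower, against 1.65% higher and 3.58% lower of 11971 genes. H2-Aa stood at 5.25 CPM (3.001 to 8.53) on 16 UMIs, 6.53 times (3.999 to 11.5) lower. H2-Eb1 stood at 3.94 CPM (2.04 to 6.88), 7.003 times (3.99 to 13.6) lower, and Cd74 at 14.1 CPM (10.2 to 19.01), 3.52 times (2.601 to 4.89) lower. Of the 43 Cd74 UMIs in deleted Hlf cells, 26 lay in 1 cell. The remaining call was H2-DMb2, on 2 UMIs, at 0.263 times (0.0313 to 0.986) the control level. H2-Ab1 was at 0.658 times (0.561 to 0.767) and H2-DMa at 0.704 times (0.627 to 0.787).

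B-lineage markers summed to 1029 CPM in deleted Hlf cells and 44.8 CPM in control ones, with 9 and 1 of 10 at 10 CPM or more. Without the cells with at least 3 Cd79a UMIs, which left 162 deleted cells and a sum of 203 CPM, the log2 ratio was -2.30 for H2-Aa, -2.44 for H2-Eb1 and -1.54 for Cd74. H2-DMb2 came to -0.96, short of 2-fold. H2-Oa and H2-Ob, at -0.72 and -0.42 over all Hlf cells, came to -1.10 and -1.23. The lists gave 2 higher and 0 lower of 12 regulators (median log2 ratio -0.08), 0 higher and 0 lower of 9 handling genes (median log2 ratio 0.16), 0 higher and 0 lower of 2 co-stimulation genes (median log2 ratio -0.04) and 0 higher and 0 lower of 9 class I genes (median log2 ratio -0.18). Of all 11971 genes tested, 1.65% were higher and 3.58% lower. The higher regulators were Pax5 and Ebf1, which set B-cell identity.

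Deleted Flt3 cells over control Flt3 cells gave 1 member higher (H2-Oa) and 6 of 9 tested lower, against 11.2% higher and 11.9% lower of 11719 genes. The log2 ratio was -4.95 for H2-Aa, -4.78 for H2-Eb1, -4.88 for Cd74, -1.81 for H2-DMa, -2.55 for H2-DMb1 and -2.23 for H2-DMb2. Without cells with at least 50 UMIs of H2-Aa, H2-Ab1, H2-Eb1 and Cd74, of which control had 8 and the deleted set 0, it was -3.55 for H2-Aa, -3.46 for H2-Eb1 and -2.86 for Cd74, and H2-Ab1 came to 1.12. Under that limit 2 of 9 tested members were higher and 6 lower, against 11.3% higher and 11.8% lower of 11710 genes. Over all cells H2-Ab1 was at 1.51 times (1.42 to 1.62) the control level. Most of these cells were the B-lineage cells described above, with a B-lineage sum of 12564 against 60.3 CPM.

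In the 58 deleted Flt3 cells with under 3 Cd79a UMIs, H2-Aa stood at 10.5 CPM (4.52 to 20.6) on 8 UMIs, Cd74 at 37.97 CPM (25.4 to 54.5) and H2-DMa at 149 CPM (123 to 179). Against control cells limited in the same way the log2 ratios were -2.74 for H2-Aa, -2.55 for H2-Eb1, -1.94 for Cd74 and -0.32 for H2-DMa. The log2 ratios of H2-Ab1, H2-Oa and H2-Ob, which were 0.59, 1.01 and 0.49 over all Flt3 cells, turned to -0.87, -1.22 and -0.22. The limited control set still held 8 cells with at least 50 UMIs of the 4 genes, with 58.8% of the total, and 1 deleted cell held 26 of the 29 Cd74 UMIs. Control Flt3 cells under 50 such UMIs had Cd74 at 36.5 CPM (33.5 to 39.8) and H2-Aa at 28.2 CPM (25.5 to 31.1), and the Cd74 level of the deleted cells lies within that Cd74 interval. Over all Flt3 cells the lists gave 2 higher and 4 lower of 12 regulators (median log2 ratio 0.24), 0 higher and 2 lower of 9 handling genes (median log2 ratio -0.45), 1 higher and 0 lower of 1 co-stimulation gene (median log2 ratio 1.06) and 0 higher and 0 lower of 9 class I genes (median log2 ratio 0.35). The regulators were Pax5 and Ebf1, which were higher, and Nfya, Irf1, Irf8 and Spi1, which were lower, with Nfya at 0.485 times (0.422 to 0.556) the control level. Ctsd and Cd63 were the lower handling genes, and Icosl was higher. Of all 11719 genes tested, 11.2% were higher and 11.9% lower.

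Deleted F13a1 cells over control F13a1 cells gave 0 members higher and 1 of 9 tested lower, against 2.33% higher and 2.24% lower of 11662 genes. The lower gene was H2-DMb2, on 8 UMIs, at 0.247 times (0.105 to 0.501). H2-Aa stood at 9.29 CPM (7.22 to 11.8) against 5.96 CPM (5.14 to 6.86), but 1 deleted cell held 51.96% of the UMIs of H2-Aa, H2-Ab1, H2-Eb1 and Cd74. Without cells of at least 50 such UMIs in either set 0 of 9 tested members were higher and 3 lower, against 2.33% higher and 2.24% lower of 11656 genes. The lower members were H2-Eb1, Cd74 and H2-DMb2, with log2 ratios of -1.22, -1.32 and -1.31, and H2-Aa, at -0.96, was not called. The lists gave 2 higher and 0 lower of 12 regulators (median log2 ratio -0.02), 0 higher and 0 lower of 8 handling genes (median log2 ratio 0.03), 0 higher and 0 lower of 1 co-stimulation gene (median log2 ratio -0.25) and 0 higher and 0 lower of 9 class I genes (median log2 ratio -0.09), Pax5 and Ebf1 again being the regulators, beside B-lineage sums of 1254 and 65.9 CPM.

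SI cells were compared with control cells in the same 3 sets. In Hlf cells 0 members were higher and 0 lower, against 1.53% higher and 1.14% lower of 13094 genes, and in Flt3 cells 0 and 0, against 1.51% higher and 0.931% lower of 11818 genes. H2-Aa stood at 27.6 CPM (26.02 to 29.2) in SI Hlf and 80.5 CPM (76.2 to 84.9) in SI Flt3 cells, 0.805 times (0.739 to 0.877) and 1.05 times (0.974 to 1.14) the control level. Cd74 was at 0.671 times (0.624 to 0.723) and 0.954 times (0.8998 to 1.01). In Hlf cells, however, Cd74 had a UMI at 1000 UMIs per cell in 2.01% (1.55 to 2.55) of SI and 4.49% (3.71 to 5.38) of control cells. Without the cells with at least 50 UMIs of H2-Aa, H2-Ab1, H2-Eb1 and Cd74 in either set, its log2 ratio was -1.03, and 0 of 10 tested members were higher and 1 lower in SI Hlf cells, against 1.48% higher and 1.16% lower of 13077 genes. The lower member was Cd74. H2-Ob stood at 28.6 CPM (27.03 to 30.3) and 36.6 CPM (33.8 to 39.6), or 1.56 times (1.41 to 1.73) and 1.57 times (1.37 to 1.79), the highest ratio of the 10 genes in both sets. No gene of the 4 lists was called in either set.

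SI F13a1 cells over control F13a1 cells gave 3 of 9 tested members higher and 0 lower, against 1.71% higher and 0.534% lower of 11989 genes. Cd74 stood at 97.1 CPM (92.8 to 102) against 13.6 CPM (12.3 to 14.9), 7.16 times (6.44 to 7.96). H2-Aa was at 5.499 times (4.67 to 6.501) and H2-Eb1 at 5.26 times (4.29 to 6.47) the control level. H2-Ab1 was at 1.31 times (1.21 to 1.42), H2-DMa at 0.875 times (0.829 to 0.923) and H2-DMb1 at 0.8902 times (0.822 to 0.963). The lists gave 0 higher and 0 lower of 10 regulators (median log2 ratio -0.03), 2 higher and 0 lower of 10 handling genes (median log2 ratio 0.38), 1 higher and 0 lower of 2 co-stimulation genes (median log2 ratio 0.88) and 0 higher and 0 lower of 9 class I genes (median log2 ratio 0.14), namely Ctss at 2.34 times (2.17 to 2.54), March1 at 7.67 times (5.301 to 11.4) and Cd40 on 52 and 1 UMIs.

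Most of the UMIs behind these levels lay in 11 of the 1131 SI F13a1 cells. Those cells had at least 50 UMIs each of H2-Aa, H2-Ab1, H2-Eb1 and Cd74 together and held 75.7% of all such UMIs in the set, and in control 5 cells held 27.7%. Without these cells in both sets the log2 ratio was -0.03 for H2-Aa, -0.70 for H2-Eb1 and 1.94 for Cd74, and 1 of 9 tested members was higher and 0 lower, against 1.58% higher and 0.543% lower of 11965 genes. The higher member was Cd74. The bound of 50 UMIs is a point on a range and defines no cell type.

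In the 11 SI cells monocyte or macrophage markers summed to 11944 CPM, with 9 of 10 detected and C1qa at 0, against 4375 CPM in the other SI F13a1 cells. F13a1, by which all these cells were chosen, is among those markers. Conventional dendritic markers summed to 277 against 61.3 CPM, with Zbtb46, Xcr1, Cd209a, Itgax and Ccr7 at 0. Of the B-lineage markers 1 of 10 was detected. The part of these cell types in the SI difference was not tested.

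Flt3 cells showed a like concentration in control and SI. In control 8 of 1066 cells had at least 50 such UMIs and held 58.1% of the total, and in SI 9 of 1227 cells held 61.05%. Chosen by these genes, the control cells with at least 50 had 13205 CPM of Cd74 and 5575 CPM of H2-Aa, and the other 1058 had 36.5 and 28.2 CPM. Conventional dendritic markers summed to 752 and 252 CPM in these sets, with 9 and 9 of 10 detected. Flt3, by which all these cells were chosen, is among those markers. In Hlf cells 3 control and 8 SI cells reached 50 UMIs, with 11.6% and 19.9% of the total.

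**Figure D4:**
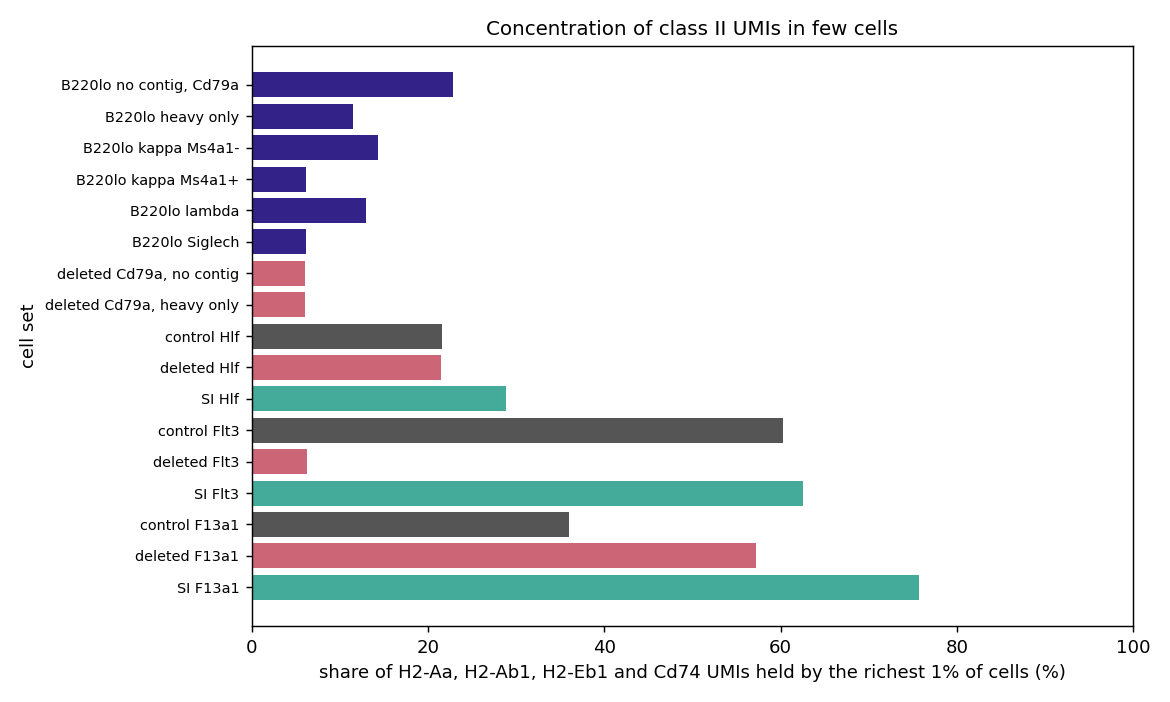
Share of the UMIs of H2-Aa, H2-Ab1, H2-Eb1 and Cd74 held by the richest 1% of cells of each set, in percent. The richest 1% held 75.7% in SI F13a1 and 60.3% in control Flt3 cells, against 6.19% in B220lo kappa cells with Ms4a1 and 5.97% in contig-free deleted B-lineage cells.

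**Figure D5:**
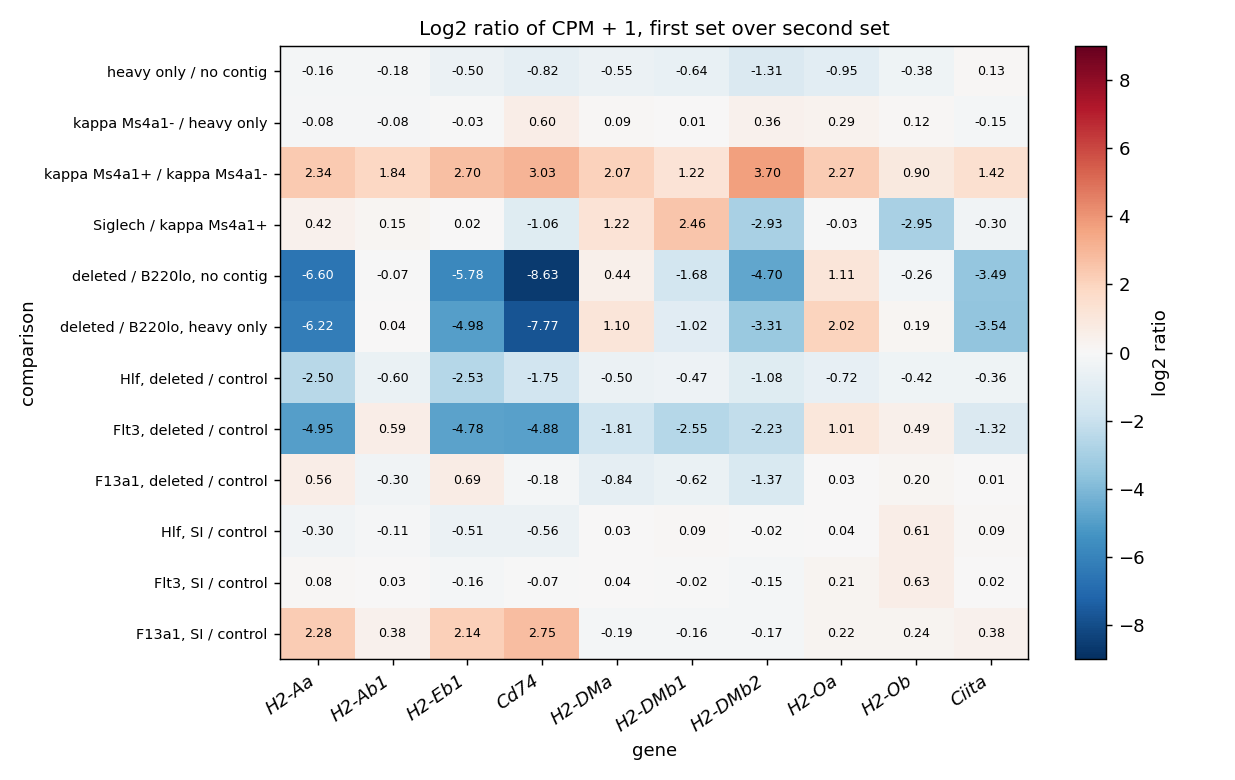
Log2 ratio of CPM with 1 CPM added, for the 10 genes in 12 comparisons, first set over second set. H2-Ab1 lies near 0 in both comparisons of deleted with B220lo cells, where H2-Aa, H2-Eb1, Cd74, H2-DMb2 and Ciita lie between -8.63 and -3.31.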

How the data were processed

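The deposited files hold raw UMI counts per gene and cell barcode and assembled receptor contigs for 4 libraries. The authors made the counts with Cell Ranger 7.1.0 on mm10, per the submitters' processing notes. Cells with at least 1000 UMIs, 500 genes and at most 10% mitochondrial UMIs were kept, and doublets were removed with Scrublet in scanpy 1.11.5 (expected share 8%, score above 0.25). Counts were summed over the cells of each set without further normalization and divided by the set's total, with Python 3.11.15, numpy 2.4.6, pandas 2.3.3 and scipy 1.17.1, and plotted with matplotlib 3.10.9. Shares of cells were computed after thinning each cell to 1000 UMIs, with exact Clopper-Pearson 95% intervals. T or NK cells had no contig, no Siglech or Cd79a UMI, and at least 1 Cd3e or 2 Nkg7 UMIs, and granulocyte cells had no contig and at least 3 Elane or Camp UMIs. Of the gene IDs, 32158 of 32285 were found in GENCODE M21. All 10 members are named, genes of the 4 lists (13 regulators, 11 handling, 5 co-stimulation, 9 class I), counted where they had at least 50 UMIs in a comparison, and the non-members most like the members by Pearson correlation over the sets. The arithmetic of the log2 ratios was tested on simulated counts with known folds, which does not replace replicates. Alternatives changed the doublet and cell filters, marker thresholds, totals, pseudocount, weight of cells, contig support and the cells left out. Members, sets and lists were chosen with earlier results of these data known.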

Additional observations from a re-analysis of the deposited data

How the results depend on the processing

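Of 250 alternatives to the 24 counts of members called, 226 stayed within 1.5 times and 24 did not. Of 1250 alternatives to the 120 member log2 ratios, 250 moved beyond the counting interval, and of 125 alternatives to the 12 medians 41 moved by 0.1 or more. Of 491 alternatives to the 46 log2 ratios past 2-fold, called or on under 50 UMIs, 3 changed sign and 29 fell below 2-fold, and of 759 alternatives to the other ratios 54 changed sign. Percentages in parentheses are the share of all genes tested that was called in the same direction under the alternative. With doublets kept, 3 members were higher in deleted F13a1 cells (3.66%). With marker thresholds 1 UMI higher, 2 members were lower in heavy-chain against contig-free cells (3.44%), 0 higher in deleted Flt3 cells (10%) and 4 lower in deleted F13a1 cells (2.25%). With totals free of receptor, ribosomal and mitochondrial genes, 0 were higher in deleted Flt3 cells (10.8%). With a pseudocount of 10 CPM, 0 were lower in heavy-chain cells (0.751%), 0 higher in contig-free deleted (4.02%), 1 higher in heavy-chain deleted (6.45%), 0 higher in deleted Flt3 (6.27%) and 0 lower in deleted F13a1 cells (0.309%). With each cell weighing the same, 0 were lower in heavy-chain cells (3.43%), 0 higher in deleted Flt3 (11.3%) and 3 higher in deleted F13a1 cells (2.86%). Without cells with 3 Cd79a UMIs, 0 were higher in deleted Flt3 cells (2.55%), 2 higher and 2 lower in deleted F13a1 cells (0.844% and 2.81%), and H2-Oa reversed to a log2 ratio of -1.22 in Flt3 cells. The limits that follow were chosen after seeing the data. With Ms4a1 0 and Igll1 of at least 3, 3 of 8 tested members were lower in heavy-chain deleted cells (6.74%). With Kit of at least 1, 4 of 6 tested members were higher and 2 lower (23.2% and 9.63%). With Ms4a1 0, 0 were lower in heavy-chain against contig-free B220lo cells (3.96%). Without cells with 50 UMIs of H2-Aa, H2-Ab1, H2-Eb1 and Cd74, 2 were higher in deleted Flt3 cells (11.3%), 3 lower in deleted F13a1 cells (2.24%), 1 lower in SI Hlf cells (1.16%) and 1 higher in SI F13a1 cells (1.58%), where H2-Aa and H2-Eb1 reversed to -0.03 and -0.70. The cause of these changes was not tested. No paired analysis was possible because each group had 1 library, and for the same reason no library could be left out. Depth limits the shares of single cells, and levels on under 20 UMIs, such as H2-DMb2 and Ciita in deleted cells, carry wide intervals.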

Other observations

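Over 22 sets of cells that share no cell, the members differed in how closely they followed the mean log2 level of H2-Aa, H2-Ab1, H2-Eb1 and Cd74. Pearson's r was 0.957 for Ciita and 0.889 for H2-DMb2, the beta chain of H2-DM that was high in Ms4a1 cells. It was 0.762 for H2-Ab1, which is part of that mean, 0.581 for H2-Ob, 0.525 for H2-Oa, 0.375 for H2-DMb1 and 0.231 for H2-DMa. Among 15223 genes the non-members most like the mean were Spag9 (0.94), Hivep3 (0.932), Arhgap27 (0.929), Cd86 (0.929) and Snx29 (0.921), followed by Mctp2, Sik1, Sash3, Kdm3b and Btla, and 5 of these 10 were also among the 10 most alike by Spearman's rho. Those most like Ciita were Spag9 (0.959), Ap1s3 (0.957), Mctp2 (0.95), Setd2 (0.948) and Fam169b (0.948). The sets share libraries, depth and sort, so these correlations describe the sets and carry no p.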
